A study of Homo sapiens with 18 samples.

Results

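Translation initiation factors and the kinases that act on eIF2 were followed by their RNA in 3 NK/T cell lymphoma lines treated with icaritin or with DMSO. The set was chosen by name: protein-coding genes whose symbol starts with EIF and a digit, without genes of chromosome Y, pseudogenes and read-through genes. It held 52 of the 21662 genes listed over all libraries, and 51 of them were among the 14396 genes with enough counts to be tested. EIF4EBP3, listed in 10 of the 18 libraries, had too few counts, and EIF5AL1, listed in 17, was tested at very low counts. By factor there were 4 genes of eIF1, 5 of eIF2, 4 eIF2 kinases, 5 of eIF2B, 13 of eIF3, 12 of eIF4, 3 eIF4E-binding proteins (4E-BP), 5 of eIF5 and 1 of eIF6. EIF3CL, EIF2S3B and EIF4E1B also fall under the naming rule and were not analysed here.

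The icaritin groups were SNT-8, SNK-10 and SNT-16 cells given icaritin, a prenylated flavonoid of Epimedium plants, for 12 h, and the control groups were the same lines given DMSO, the solvent, for 12 h. All cells were labelled WT in genotype, and each line is a single established culture line, so differences between lines are differences between 3 lines only. Each of the 6 groups held 3 libraries, whose expected counts summed to between 9526431 and 10100453. The labels do not say whether the replicates were separate cultures, so p-values measure a spread between libraries only. For each gene that spread was taken as equal in the 6 groups. Icaritin libraries differed from each other by a chi-square per gene of 3.07 to 8.18 between pairs in SNT-8. It was 1.53 to 4.13 in SNK-10 and 1.37 to 2.08 in SNT-16, against 1.59 to 2.46 between DMSO libraries of a line. The dose of icaritin is not given in the sources used here. Levels in CPM are counts relative to the library total multiplied by a scaling factor for that library. The T and NK cell markers CD2 (177 to 431 CPM), CD3E (289 to 388 CPM) and GZMB (468 to 1889 CPM) were present in every library, and NCAM1 lay between 18.6 and 81.9 CPM. Markers of other cells were at or near 0 for the B cell gene MS4A1, the monocyte gene CD14 and the epithelial gene KRT19 (at most 0.32 CPM), while LYZ reached 15.4 CPM, CSF1R 13.5 CPM and COL1A1 11.8 CPM. HBB and EPCAM were not analysed here. In such bulk RNA, fewer cells of a kind and less RNA per cell cannot be told apart.

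Translation starts when eIF2 delivers the initiator tRNA to the small ribosomal subunit, with eIF1, eIF1A, eIF3 and eIF5 bound. The cap complex eIF4F, built of the cap-binding eIF4E, the scaffold eIF4G and the helicase eIF4A, then brings that subunit to the mRNA, and the 4E-BP proteins block it by holding eIF4E. Under stress the kinases HRI, PKR, PERK and GCN2 phosphorylate the alpha subunit of eIF2, which then inhibits eIF2B, the factor that reloads eIF2 with GTP. General initiation falls while a few mRNAs, such as that of ATF4, are translated more.

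Icaritin lowered the RNA of most eIF2B subunits and of the eIF4F subunits EIF4E, EIF4A1 and EIF4G1, together with EIF5A, EIF5B and EIF6. It also lowered EIF2S1 and the eIF3 subunits EIF3A, EIF3B, EIF3D, EIF3G and EIF3J. It raised EIF2S2, EIF2S3, 4 other eIF3 subunits, EIF4B and EIF1. In SNT-8, 13 of the 51 tested genes rose and 29 fell, where 24.0% of all genes tested rose and 25.0% fell (edgeR adjusted p under 0.05). In SNK-10, 16 rose and 27 fell, against 24.4% and 24.0% of all genes. In SNT-16, 13 rose and 27 fell, against 21.2% and 20.8%. On the mean of the 3 lines, 14 rose and 30 fell, against 31.7% and 30.0%. These genes are well expressed, and among all genes of at least 20 CPM calls were more common: 28.7% rose and 36.7% fell in SNT-8, 32.6% and 32.2% in SNK-10, and 28.5% and 30.3% in SNT-16. Of the 48 initiation factor genes at that level, 12 rose and 29 fell in SNT-8, 15 and 26 in SNK-10, and 13 and 27 in SNT-16, so the share that rose (25.0%, 31.2% and 27.1%) was near that of all genes at that level in each line.

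Many of these changes were shared by the lines: 23 of 51 genes (45.1%) fell in each of the 3 lines and 11 (21.6%) rose in each, where 14.3% and 13.0% of all genes did so and 22.3% and 19.5% of genes of at least 20 CPM. The 3 icaritin and 3 DMSO libraries of a line did not overlap for 42 genes in SNT-8, 44 in SNK-10 and 42 in SNT-16, against 54.1%, 55.2% and 52.7% of all genes. The median log2 fold change of the 51 genes was -0.19 in SNT-8, -0.20 in SNK-10 and -0.19 in SNT-16, with 0.02, 0.01 and 0.02 over all genes. EIF2A, EIF3K, EIF3M, EIF4H and EIF5AL1 passed the test in no line. Of these, EIF3M passed in SNT-8 without icaritin replicate 2 (edgeR adjusted p = 0.0163) and in SNK-10 without icaritin replicate 3 (0.0333), and EIF3K passed in SNK-10 and SNT-16 under 3 alternatives each (adjusted p 0.0159 to 0.0467). Across the 50 genes of at least 5 CPM, the fold changes of SNT-8 and SNT-16 had a Pearson correlation of 0.946, those of SNK-10 and SNT-16 of 0.794 and those of SNT-8 and SNK-10 of 0.677. Over all genes at that level the values were 0.792, 0.732 and 0.748. These are correlations across genes, which are not independent replicates. The correlations with SNK-10 include EIF4EBP1, which rose strongly in SNK-10 and was called in neither SNT line, and were not computed without it.

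**Figure D1:**
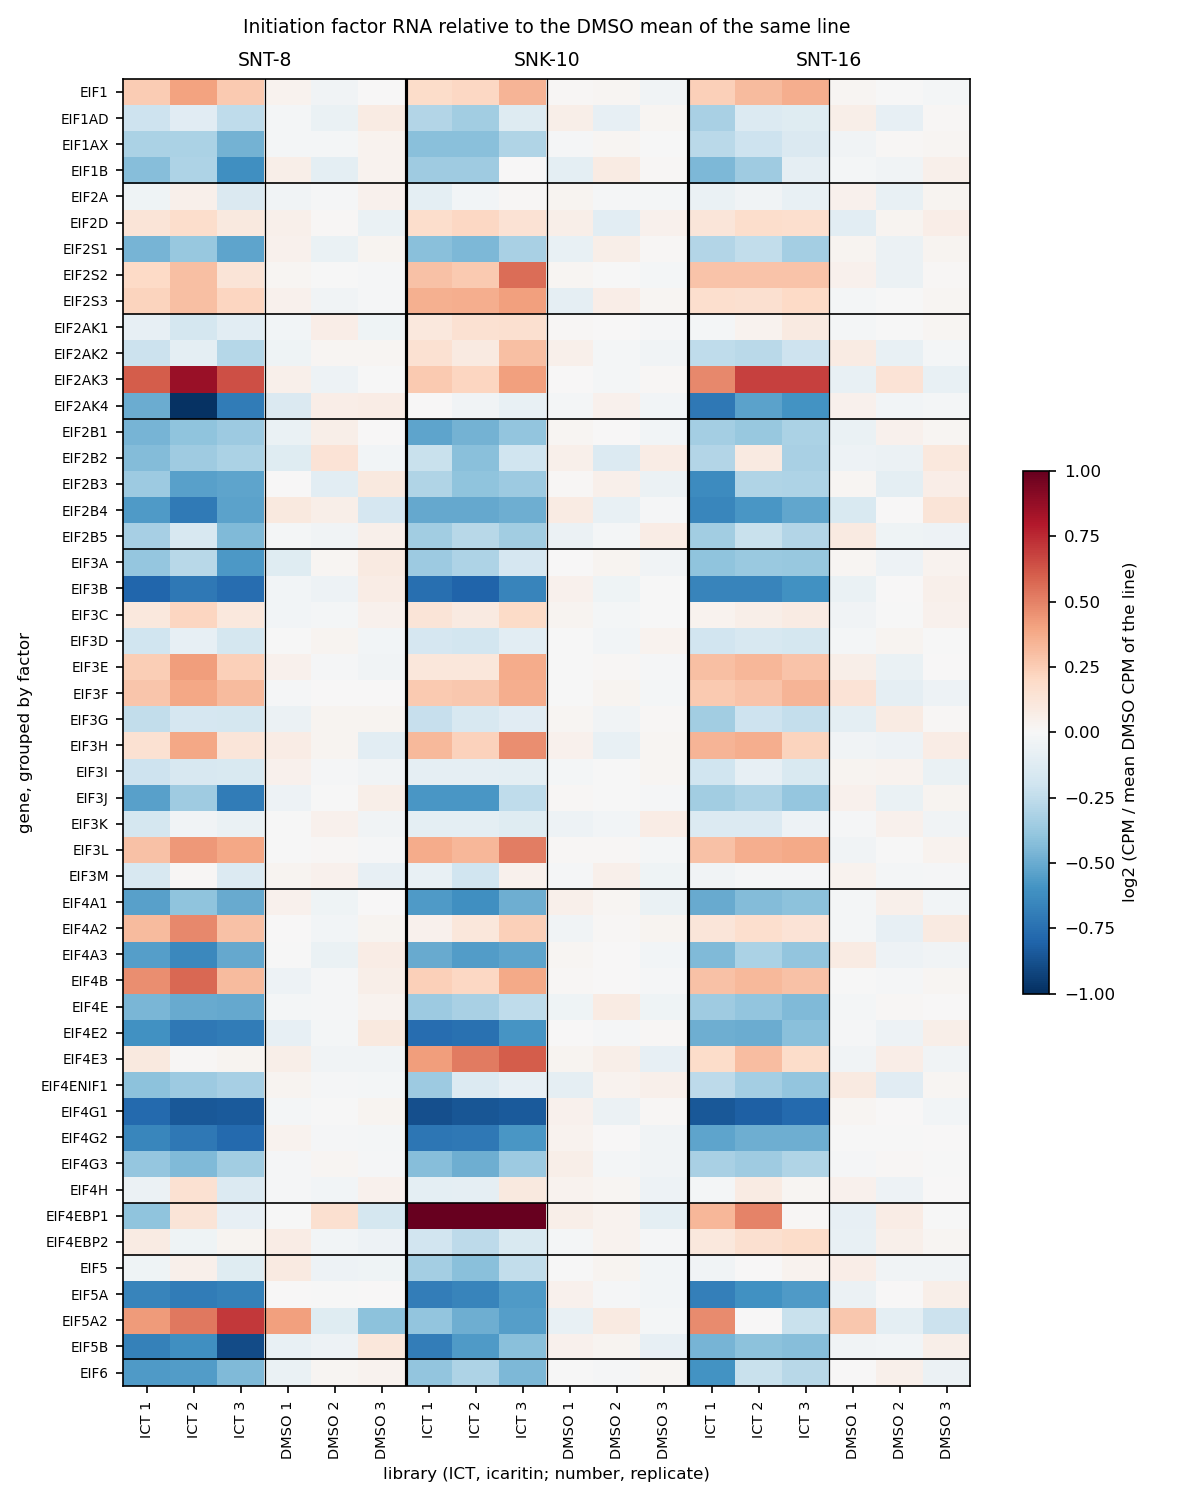
Colour shows log2 of each library's CPM over the mean DMSO CPM of the same line, for 50 initiation factor genes (rows, by factor) in 18 libraries (columns, icaritin left of DMSO in each line), with colours limited at -1 and 1. EIF4EBP1 in SNK-10 lies beyond the upper limit, and the rows of eIF2B, EIF3B, EIF4G1, EIF4G2 and EIF5A are blue in all icaritin libraries except EIF2B2 in 1 library of SNT-16.

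Several of the rising genes have an annotated start of the kind found in mRNAs of the translation machinery, a C followed by a run of pyrimidines (a terminal oligopyrimidine start, through which mTORC1 and LARP1 control translation). The start was read on the transcribed strand as C at the first annotated base followed by at least 4 bases of C or T, a definition chosen after the values were seen. RefSeq windows of GRCh38.p14 were at hand for 44 of the 52 genes. The start was found in 9 genes, all of them tested, where 795 of the 11223 tested genes with a window (7.08%) had it, as did 4.07% of all 35116 annotated windows. EIF2S2, EIF3E, EIF3H and EIF3L, which rose in each line, and EIF2AK1, EIF3A, EIF3G and EIF4EBP1 had no window here and stand in neither class. All 9 are shown, as 5 of them rose in each line. Over all genes 13.0% did so, and over genes of at least 20 CPM 19.5%. The share among all genes with the start was not computed. Each line gives 20 bases before the start and 10 from it, 5′ to 3′, with the pyrimidine run in capitals as far as the window reaches.
EIF2D: gccctggtttccagccgggcCCTTTTCgcg
EIF2S3: cagccggggtgatttccttcCTCTTTTggc
EIF3F: gtcatttccgcttccgcctcCTTCTTTCTC
EIF4A2: gggtggttgggcgccgctgtCTTTTCagtc
EIF4B: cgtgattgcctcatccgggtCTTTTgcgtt
EIF2A: aactctcacccgagcggtttCTCTTTCCgg
EIF3K: gtcgtttccgtttccaccacCTCTTCCTgt
EIF3M: gcgtcgcgcggcccagttccCTTTTCCggt
EIF3D: ccgctgcgcgcgcatgtttcCTCTTTTCCT
The windows lie at chr1:206612456-206612485 (minus strand) for EIF2D, chrX:24054936-24054965 for EIF2S3, chr11:7987317-7987346 for EIF3F, chr3:186783557-186783586 for EIF4A2 and chr12:53006436-53006465 for EIF4B. Those of EIF2A, EIF3K, EIF3M and EIF3D lie at chr3:150546767-150546796, chr19:38619168-38619197, chr11:32583811-32583840 and chr22:36529157-36529186 (the last on the minus strand). Each window spans the proximal promoter and the first transcribed bases. The start did not mark all rising genes: EIF1 and EIF2AK3 rose in each line and have windows without it. EIF3B, whose only annotated window lies at chr7:2354807-2354836, fell in every line and is shown as an example without such a start.
EIF3B: ggcctccccgtcgcacgcacatggctgggc

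EIF2D, EIF2S3, EIF3F, EIF4A2 and EIF4B, the 5 genes listed at the top, rose in each line, although calls for EIF2D in all lines and for EIF4A2 in SNK-10 and SNT-16 were lost on leaving out single libraries. EIF2A, EIF3K and EIF3M passed the test in no line, and EIF3D fell in each. The 34 tested genes whose windows lack the start went mostly down: 4 rose and 25 fell in SNT-8, 5 rose and 24 fell in SNK-10, and 4 rose and 24 fell in SNT-16. Over all tested genes the split was smaller. In SNT-8, 27.2% of the 795 genes with the start rose and 23.6% fell, against 23.7% and 26.9% of the 10428 genes without it. In SNK-10 the shares were 29.2% and 20.6% with the start, against 24.3% and 25.8% without it. In SNT-16 they were 27.7% and 20.4% with it, against 21.3% and 22.2% without. At 20 CPM or more there were 531 genes with the start and 5874 without it. Of these, 31.1% rose and 29.8% fell in SNT-8 with it, against 28.0% and 37.8% without. The shares at that level were 34.7% and 23.7% with it in SNK-10, against 31.9% and 33.5% without. They were 34.3% and 26.4% with it in SNT-16, against 27.7% and 30.9% without. A match describes the annotated letters only, and start sites in these cells were not measured.

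**Figure D2:**
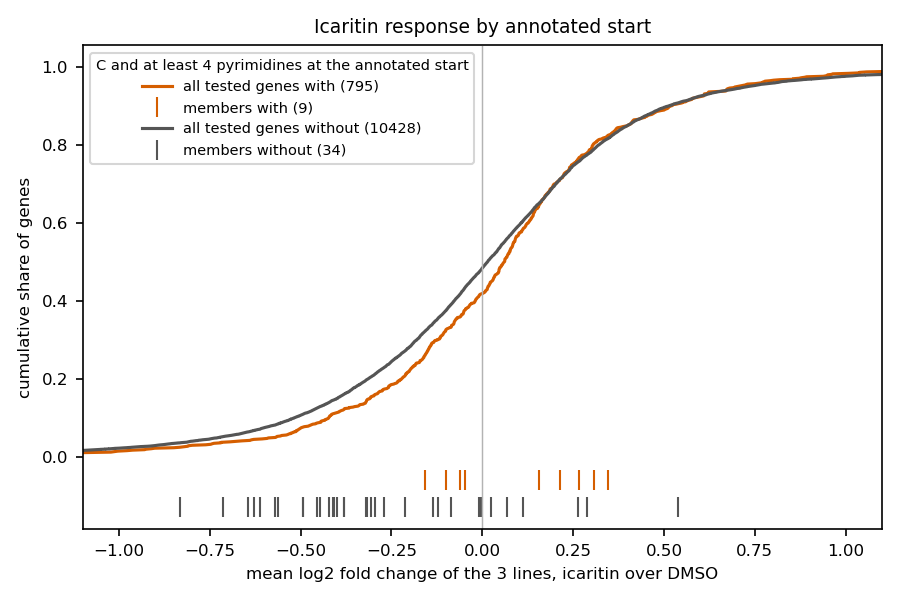
The lines show the cumulative share of tested genes (vertical axis) against the mean log2 fold change of the 3 lines, icaritin over DMSO (horizontal axis), for 795 genes with and 10428 genes without the pyrimidine start. Ticks below mark the initiation factor genes, of which 9 have the start and 34 do not; those with it lie between -0.16 for EIF3D and 0.35 for EIF4B.

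Among the eIF1 genes, EIF1, which guards the choice of the start codon, rose in each line, and EIF1AX, whose product eIF1A works with it during scanning, fell. EIF1 had 531 to 676 CPM, median 579, in the 9 icaritin libraries, against 443 to 524 CPM, median 478, in the 9 DMSO libraries. No icaritin library was below the highest DMSO library, with log2 fold changes of 0.31 in SNT-8, 0.25 in SNK-10 and 0.31 in SNT-16 (SE 0.05, 0.05 and 0.05, edgeR adjusted p = 5.93e-07, 3.00e-05 and 8.98e-07). EIF1AX had 442, 441 and 397 CPM in icaritin libraries of SNT-8, against 544, 544 and 564 CPM in its DMSO libraries. In SNK-10 it had 215, 215 and 233 CPM with icaritin, against 284, 291 and 287 CPM with DMSO, and in SNT-16 449, 467 and 489 CPM with icaritin, against 528, 544 and 548 CPM with DMSO. The groups were apart in each line, with log2 fold changes of -0.37 in SNT-8, -0.38 in SNK-10 and -0.21 in SNT-16 (SE 0.05, 0.05 and 0.05, edgeR adjusted p = 9.11e-09, 1.68e-08 and 0.000247). EIF1AX has near-identical copies elsewhere in the genome, among which the counting could divide reads. EIF1B, a close relative of EIF1, and EIF1AD, which carries an eIF1A domain, fell by less than 0.5 on the log2 scale in the lines where they passed. EIF1B changed by -0.44 in SNT-8, -0.23 in SNK-10 and -0.29 in SNT-16 and did not pass in SNK-10 (edgeR adjusted p = 0.0519), where it did pass under 12 alternatives, with the largest fall, -0.35, without icaritin replicate 3 (0.00355). In SNT-16 its call was lost without its icaritin replicate 1 (0.0909) or 2 (0.0524). EIF1AD changed by -0.19 in SNT-8, -0.25 in SNK-10 and -0.19 in SNT-16. Its calls were lost on leaving out any of 4 libraries in SNT-8 (edgeR adjusted p 0.0600 to 0.172), any of 3 in SNT-16 (0.102 to 0.250) and icaritin replicate 2 in SNK-10 (0.0557). With all libraries kept, its calls were lost under 6 alternatives in SNT-8 (adjusted p 0.0564 to 0.105) and 4 in SNT-16 (0.0624 to 0.0946), DESeq2 among them.

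The subunits of eIF2 went in opposite directions: EIF2S1, the alpha subunit that the stress kinases phosphorylate, fell in each line, while EIF2S2 (beta) and EIF2S3 (gamma, which holds GTP and the initiator tRNA) rose. EIF2S1 had 113 to 136 CPM, median 126, in the 9 icaritin libraries, against 152 to 177 CPM, median 162, in the 9 DMSO libraries. The arms did not overlap, with log2 fold changes of -0.46 in SNT-8, -0.40 in SNK-10 and -0.29 in SNT-16 (SE 0.05, 0.05 and 0.05, edgeR adjusted p = 1.41e-09, 3.29e-08 and 1.15e-05). EIF2S2 had 276 to 388 CPM, median 323, in the 9 icaritin libraries, against 249.8 to 294 CPM, median 262, in the 9 DMSO libraries. The lowest icaritin library lay below the highest DMSO library of another line, but within each line the groups were apart, with log2 fold changes of 0.21 in SNT-8, 0.38 in SNK-10 and 0.29 in SNT-16 (SE 0.05, 0.05 and 0.05, edgeR adjusted p = 0.00147, 3.51e-07 and 3.88e-05). EIF2S3 differed in level between lines, so it is given line by line. It had 962, 1015 and 955 CPM in icaritin libraries of SNT-8, against 847, 806 and 818 CPM in its DMSO libraries. In SNK-10 it had 409, 412 and 427 CPM with icaritin, against 302, 335 and 326 CPM with DMSO. In SNT-16 it had 875, 871 and 893 CPM with icaritin, against 769.5, 778 and 788 CPM with DMSO. All icaritin libraries of a line exceeded its DMSO libraries, with log2 fold changes of 0.25 in SNT-8, 0.38 in SNK-10 and 0.18 in SNT-16 (SE 0.04, 0.04 and 0.04, edgeR adjusted p = 5.12e-06, 3.51e-09 and 0.000711). EIF2S3 also has a near-identical copy that was not analysed here. Per transcript length, EIF2S3 averaged 114 ± 0.665 FPKM with icaritin in SNK-10, against 89.5 ± 5.22 with DMSO, while EIF2S1 averaged 29.5 ± 0.678 FPKM with icaritin, against 39.8 ± 1.94 with DMSO (SD, n = 3 each).

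Outside the eIF2 complex, EIF2D, which can deliver tRNA to the ribosome without GTP and acts in recycling, rose slightly. It had log2 fold changes of 0.14 in SNT-8, 0.18 in SNK-10 and 0.15 in SNT-16 (SE 0.05, 0.05 and 0.05, edgeR adjusted p = 0.0270, 0.00510 and 0.0151). These calls rest on single libraries: the one in SNK-10 was lost without DMSO replicate 2 (edgeR adjusted p = 0.0821), those in SNT-8 and SNT-16 without any of 3 libraries each (0.0525 to 0.152 and 0.0505 to 0.152). EIF2D overlaps RASSF5, whose mean expected count of 1877 exceeds its own of 1425, so reads of the pair may not be separable. EIF2A, an initiator tRNA-binding protein that is no subunit of eIF2, ranged from 122 to 149 CPM with icaritin, against 122 to 148 CPM with DMSO, and the groups overlapped.

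The 4 eIF2 kinases each responded in their own way, and all 4 differed between lines by the interaction test, which asks whether the 3 responses are equal. For EIF2AK1 that call was lost without 1 library, and for EIF2AK3 without any of 3. Of all 51 genes, 11 passed that test (21.6%), where 14.3% of all genes did and 21.6% of genes of at least 20 CPM, so that share is near the background. EIF2AK3, which encodes PERK, the kinase of the endoplasmic reticulum, rose in each line and more in the SNT lines. It had 50.99, 61.1 and 52.4 CPM in icaritin libraries of SNT-8, against 34.8, 32.4 and 33.5 CPM in its DMSO libraries. In SNK-10 the values were 44.6, 43.2 and 49.5 CPM with icaritin, against 37.5, 36.8 and 37.5 CPM with DMSO, and in SNT-16 42.9, 49.5 and 49.4 CPM with icaritin, against 29.3, 33.8 and 29.3 CPM with DMSO. Every icaritin library was above the DMSO libraries of its line, with log2 fold changes of 0.71 in SNT-8, 0.30 in SNK-10 and 0.62 in SNT-16 (SE 0.08, 0.08 and 0.08, edgeR adjusted p = 5.64e-10, 0.00187 and 3.08e-08). The interaction (edgeR adjusted p = 0.0186) was lost on omitting SNK-10 DMSO replicate 3 (0.0508) or SNK-10 icaritin replicate 1 (0.0563) or 2 (0.0682). The antisense gene EIF2AK3-AS1 overlaps it at a mean expected count of 100.2, against 408 for EIF2AK3, and whether strand was used in counting is not given in the sources used here.

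EIF2AK4, which encodes GCN2, the kinase that senses uncharged tRNA, fell in both SNT lines and stayed within the spread of its libraries in SNK-10. It had 18.4, 13.04 and 15.9 CPM in icaritin libraries of SNT-8, against 23.4, 27.04 and 27.2 CPM in its DMSO libraries. In SNT-16 it had 17.7, 20.04 and 19.2 CPM with icaritin, against 30.1, 28.5 and 28.7 CPM with DMSO. In SNK-10, where it was far more abundant, it had 73.00, 70.9 and 69.1 CPM with icaritin, against 71.7, 74.9 and 71.3 CPM with DMSO. The icaritin and DMSO libraries overlapped in SNK-10 and were apart in the SNT lines, with log2 fold changes of -0.71 in SNT-8, -0.03 in SNK-10 and -0.61 in SNT-16 (SE 0.09, 0.07 and 0.09, edgeR adjusted p = 4.49e-08, 0.720 and 3.95e-07). The response of SNK-10 minus the mean response of the SNT lines was 0.63 on the log2 scale (SE 0.09, edgeR adjusted p = 5.38e-06).

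EIF2AK2, which encodes PKR, the kinase activated by double-stranded RNA, rose in SNK-10 and fell in both SNT lines. SNK-10 cells had 127, 122 and 141 CPM with icaritin, against 118, 112 and 111 CPM with DMSO. SNT-8 cells had 144, 156 and 137 CPM with icaritin, against 162, 169.6 and 169.6 CPM with DMSO, and SNT-16 cells 159.8, 159 and 165 CPM with icaritin, against 202, 182 and 188 CPM with DMSO. No line showed overlap between its groups, with log2 fold changes of -0.20 in SNT-8, 0.19 in SNK-10 and -0.24 in SNT-16 (SE 0.05, 0.06 and 0.05, edgeR adjusted p = 0.00229, 0.00594 and 0.000239). The difference of the SNK-10 response from the mean of the SNT lines was 0.41 (SE 0.07, edgeR adjusted p = 3.32e-05), although the rise within SNK-10 was lost without its icaritin replicate 3 (edgeR adjusted p = 0.0752). EIF2AK1, which encodes the heme-regulated kinase HRI, changed by no more than 0.14 in size. It had log2 fold changes of -0.12 in SNT-8, 0.14 in SNK-10 and 0.04 in SNT-16 (SE 0.05, 0.05 and 0.04, edgeR adjusted p = 0.0264, 0.00940 and 0.549). Without SNT-8 DMSO replicate 2 or icaritin replicate 2 its fall in SNT-8 no longer passed (edgeR adjusted p = 0.166 and 0.103). Under 4 other alternatives it was lost too (adjusted p 0.0639 to 0.163), scaling by library totals among them. The call for its higher response in SNK-10 than in the SNT lines was lost without either of 2 libraries (edgeR adjusted p 0.0549 and 0.0553). That call was also lost under 2 other alternatives (adjusted p 0.1335 and 0.1475). EIF2AK1 had 191, 179 and 188 CPM in icaritin libraries of SNT-8, against 199, 211 and 196 CPM in its DMSO libraries. In SNK-10 it had 220.5, 228 and 228 CPM with icaritin, against 206, 205 and 203 CPM with DMSO, and in SNT-16 206, 213 and 222 CPM with icaritin, against 206, 208 and 212 CPM with DMSO. The groups overlapped in SNT-16 only. EIF2AK1 overlaps AIMP2 and EIF2AK2 overlaps GPATCH11, with mean expected counts of 570 and 475 beside their own 2026 and 1490.

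**Figure D3:**
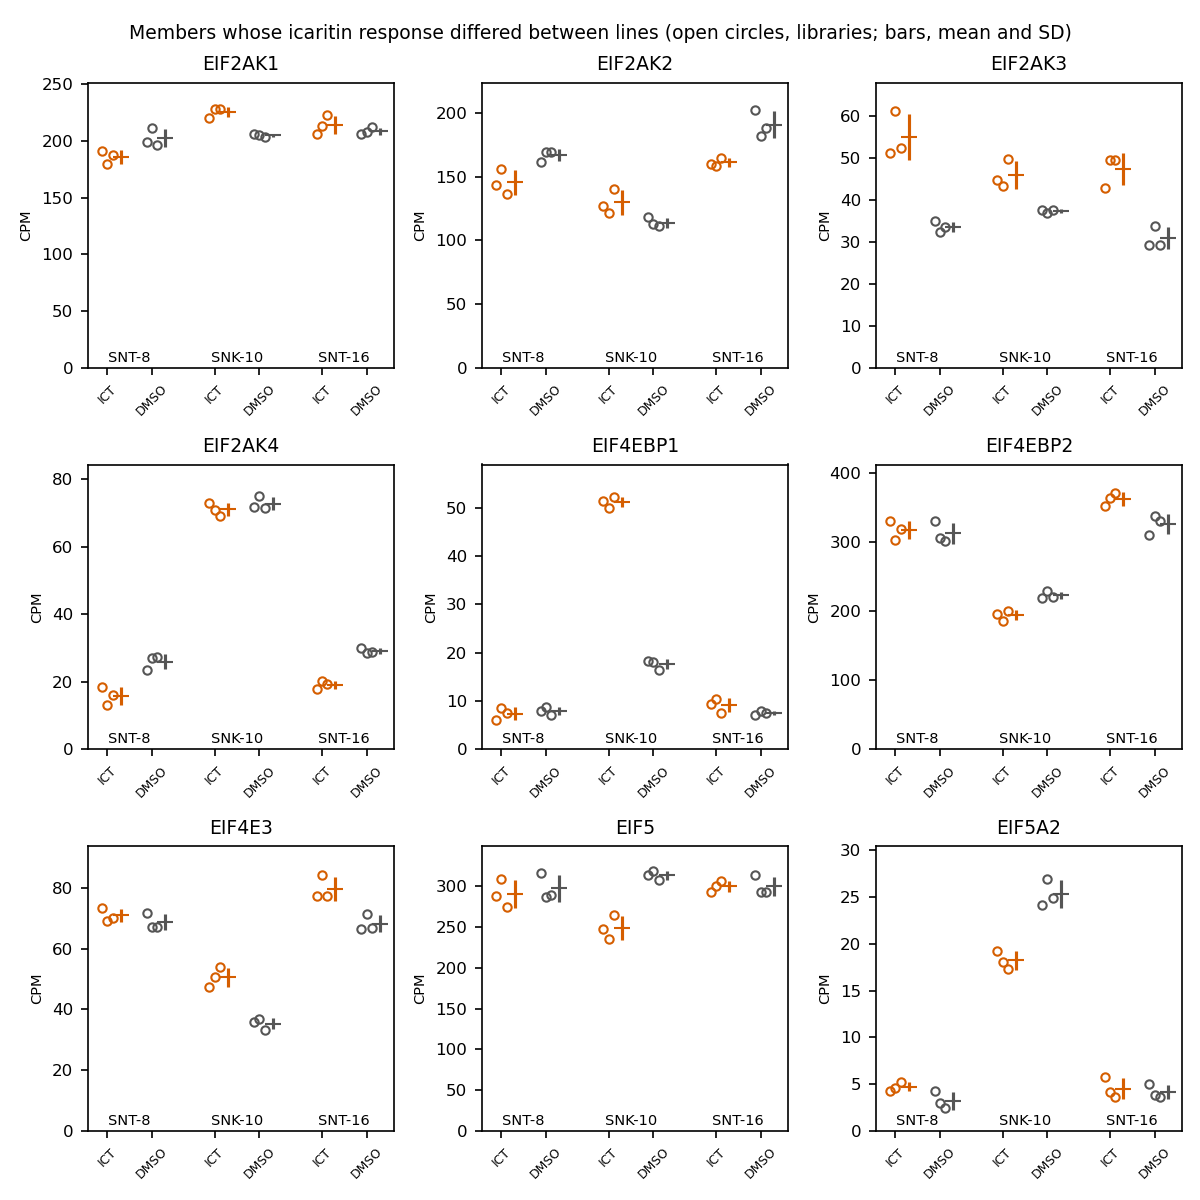
Each panel shows a gene whose icaritin response differed between lines, with CPM on the vertical axis from 0, open circles for libraries and bars for mean and SD (n = 3), icaritin (ICT) left of DMSO in each line. EIF4EBP1 stands at 50.01 to 52.2 CPM in the icaritin libraries of SNK-10 and at no more than 18.3 CPM in any DMSO library, while EIF2AK4 drops in the SNT lines and stays near 70 CPM in SNK-10.

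The guanine nucleotide exchange factor eIF2B, which reloads eIF2 with GTP, had lower RNA for most subunits: all 5 fell in SNT-8 and SNK-10 and 4 of 5 in SNT-16, where 25.0%, 24.0% and 20.8% of all genes fell in SNT-8, SNK-10 and SNT-16. EIF2B4, the delta subunit, fell the most. It had 22.6 to 29.2 CPM, median 25.5, in the 9 icaritin libraries, against 32.9 to 43.3 CPM, median 38.9, in the 9 DMSO libraries. No icaritin library reached the lowest DMSO library, with log2 fold changes of -0.60 in SNT-8, -0.50 in SNK-10 and -0.58 in SNT-16 (SE 0.08, 0.08 and 0.08, edgeR adjusted p = 1.28e-07, 2.45e-06 and 2.60e-07). EIF2B1, the alpha subunit, through which eIF2B senses phosphorylated eIF2 together with its beta and delta subunits, had 54.05 to 62.9 CPM, median 60.3, in the 9 icaritin libraries, against 75.03 to 83.4 CPM, median 79.2, in the 9 DMSO libraries. The arms were apart, with log2 fold changes of -0.41 in SNT-8, -0.47 in SNK-10 and -0.35 in SNT-16 (SE 0.06, 0.06 and 0.06, edgeR adjusted p = 1.12e-07, 1.35e-08 and 3.33e-06). EIF2B1 overlaps DDX55, whose mean expected count was 611 beside 679 for EIF2B1. EIF2B5, the catalytic epsilon subunit, had 54.2 to 65.8 CPM, median 56.9, in the 9 icaritin libraries, against 66.4 to 76.2 CPM, median 71.6, in the 9 DMSO libraries. Its arms did not overlap, with log2 fold changes of -0.31 in SNT-8, -0.32 in SNK-10 and -0.29 in SNT-16 (SE 0.06, 0.07 and 0.06, edgeR adjusted p = 0.000114, 8.21e-05 and 0.000356).

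EIF2B3, the gamma subunit, was more abundant in SNK-10 than in the SNT lines and fell in each. It had 17.2, 15.2 and 15.3 CPM in icaritin libraries of SNT-8, against 22.1, 20.4 and 23.6 CPM in its DMSO libraries. In SNK-10 it had 36.1, 33.5 and 34.5 CPM with icaritin, against 44.6, 45.9 and 42.6 CPM with DMSO, and in SNT-16 13.6, 17.1 and 16.98 CPM with icaritin, against 21.4, 19.7 and 22.1 CPM with DMSO. Groups were apart within each line, with log2 fold changes of -0.47 in SNT-8, -0.35 in SNK-10 and -0.41 in SNT-16 (SE 0.10, 0.08 and 0.10, edgeR adjusted p = 7.06e-05, 0.000250 and 0.000622). EIF2B2, the beta subunit, was the exception in SNT-16, where it had 26.5, 34.6 and 26.1 CPM with icaritin, against 31.4, 31.2 and 35.05 CPM with DMSO. There icaritin replicate 2 lay within the DMSO range, and without it EIF2B2 passed in SNT-16 too (log2 fold change -0.31, edgeR adjusted p = 0.0102). In SNT-8 it had 26.2, 27.8 and 28.4 CPM with icaritin, against 32.6, 39.1 and 34.7 CPM with DMSO, and in SNK-10 38.9, 33.98 and 39.5 CPM with icaritin, against 47.05, 41.2 and 47.8 CPM with DMSO. EIF2B2 had log2 fold changes of -0.37 in SNT-8, -0.28 in SNK-10 and -0.16 in SNT-16 (SE 0.09, 0.09 and 0.09, edgeR adjusted p = 0.00132, 0.00934 and 0.170). Its call in SNK-10 was lost without DMSO replicate 3 (edgeR adjusted p = 0.0542) or icaritin replicate 2 (0.0790).

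The 13 subunits of eIF3, the scaffold that holds the small ribosomal subunit, divided: EIF3L, EIF3F, EIF3H and EIF3E rose in each line, EIF3B, EIF3J, EIF3A, EIF3G and EIF3D fell in each, and EIF3K and EIF3M did not pass in any. Each of the 4 risers belongs to the octamer of subunits with PCI or MPN domains, as do EIF3A, EIF3C, EIF3K and EIF3M. EIF3L had 322 to 386 CPM, median 340.5, in the 9 icaritin libraries, against 255 to 279 CPM, median 272, in the 9 DMSO libraries. Its arms did not overlap, with log2 fold changes of 0.37 in SNT-8, 0.41 in SNK-10 and 0.35 in SNT-16 (SE 0.05, 0.05 and 0.05, edgeR adjusted p = 1.28e-08, 2.20e-09 and 8.61e-08). EIF3F, an MPN subunit, had 234 to 290.1 CPM, median 268, in the 9 icaritin libraries, against 182 to 229 CPM, median 216, in the 9 DMSO libraries. Here too the arms were apart, with log2 fold changes of 0.33 in SNT-8, 0.30 in SNK-10 and 0.30 in SNT-16 (SE 0.05, 0.05 and 0.05, edgeR adjusted p = 5.75e-07, 2.71e-06 and 4.44e-06). EIF3H, the other MPN subunit, was highest in SNK-10, with 349, 328 and 384 CPM with icaritin, against 288, 266 and 284 CPM with DMSO. In SNT-8 it had 233, 274 and 228 CPM with icaritin, against 220.5, 214 and 196 CPM with DMSO, and in SNT-16 228, 232 and 211 CPM with icaritin, against 176, 174 and 190.0 CPM with DMSO. It had log2 fold changes of 0.22 in SNT-8, 0.34 in SNK-10 and 0.31 in SNT-16 (SE 0.07, 0.06 and 0.07, edgeR adjusted p = 0.00713, 9.62e-05 and 0.000464). The call in SNT-8, where the groups were apart by little, was lost without icaritin replicate 2 (edgeR adjusted p = 0.0591). EIF3E had 358 to 428 CPM, median 380.3, in the 9 icaritin libraries, against 298 to 335 CPM, median 322, in the 9 DMSO libraries. All 9 icaritin libraries exceeded all 9 DMSO libraries, with log2 fold changes of 0.30 in SNT-8, 0.20 in SNK-10 and 0.31 in SNT-16 (SE 0.05, 0.05 and 0.05, edgeR adjusted p = 1.39e-05, 0.00202 and 1.38e-05), but in SNK-10 the call was lost without icaritin replicate 3 (edgeR adjusted p = 0.0524).

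Among the eIF3 subunits that fell, EIF3B, a core scaffold with an RNA recognition motif and a beta-propeller, changed the most. It had 187 to 212 CPM, median 197, in the 9 icaritin libraries, against 308 to 341 CPM, median 324, in the 9 DMSO libraries. The lowest DMSO library was far above the highest icaritin library, with log2 fold changes of -0.76 in SNT-8, -0.74 in SNK-10 and -0.64 in SNT-16 (SE 0.05, 0.05 and 0.05, edgeR adjusted p = 1.38e-16, 2.89e-16 and 2.11e-14). SNX8 overlaps EIF3B at a mean expected count of 346, beside 2575 for EIF3B. EIF3J, a loosely bound subunit that helps place and release the small ribosomal subunit, had 89.2 to 140.4 CPM, median 112, in the 9 icaritin libraries, against 136 to 169 CPM, median 147, in the 9 DMSO libraries. Within each line its groups were apart, with log2 fold changes of -0.53 in SNT-8, -0.47 in SNK-10 and -0.35 in SNT-16 (SE 0.07, 0.07 and 0.07, edgeR adjusted p = 2.32e-06, 1.07e-05 and 0.000455). EIF3J overlaps SPG11, whose mean expected count was 870.1 beside 1287. EIF3A, the largest subunit, changed by -0.41 in SNT-8, -0.27 in SNK-10 and -0.38 in SNT-16, EIF3G by -0.20 in SNT-8, -0.17 in SNK-10 and -0.26 in SNT-16 and EIF3D, which can itself bind the cap of some mRNAs, by -0.15 in SNT-8, -0.15 in SNK-10 and -0.17 in SNT-16. EIF3G did not pass in SNK-10 without icaritin replicate 1 (edgeR adjusted p = 0.0524). EIF3I fell in SNT-8 and SNT-16 (-0.17 and -0.14), the call in SNT-16 being lost without DMSO replicate 2 (0.0576) or icaritin replicate 1 (0.0662). EIF3C, whose copy EIF3CL was not analysed here and may share its reads, rose in SNT-8 and SNK-10 (0.14 and 0.14). EIF3K and EIF3M changed by at most 0.11 in size on the log2 scale.

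Of the cap complex, all 3 parts fell in each line. EIF4G1, the main scaffold, which ties eIF4E, eIF4A, eIF3 and the poly(A)-binding protein together, fell the most of all 51 genes on the mean of the lines. It had 531 to 629 CPM, median 602, in the 9 icaritin libraries, against 939 to 1148 CPM, median 1072, in the 9 DMSO libraries. No library of either arm came near the other, with log2 fold changes of -0.82 in SNT-8, -0.86 in SNK-10 and -0.81 in SNT-16 (SE 0.04, 0.04 and 0.04, edgeR adjusted p = 1.81e-19, 5.86e-20 and 5.77e-19). On the mean of the 3 lines EIF4G1 was at 0.561 times its DMSO level. EIF4A1, the main helicase of the complex, had 689.8 to 860.1 CPM, median 773, in the 9 icaritin libraries, against 974 to 1246 CPM, median 1033, in the 9 DMSO libraries. The arms were apart, with log2 fold changes of -0.48 in SNT-8, -0.55 in SNK-10 and -0.45 in SNT-16 (SE 0.05, 0.05 and 0.05, edgeR adjusted p = 2.00e-11, 4.48e-13 and 1.49e-10). EIF4E, which binds the cap, had 113 to 123 CPM, median 117, in the 9 icaritin libraries, against 142 to 164 CPM, median 156, in the 9 DMSO libraries. Again no icaritin library reached the DMSO range, with log2 fold changes of -0.49 in SNT-8, -0.31 in SNK-10 and -0.40 in SNT-16 (SE 0.05, 0.05 and 0.05, edgeR adjusted p = 3.91e-11, 1.15e-06 and 8.33e-09).

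The relatives of eIF4G fell with it. EIF4G2, also called DAP5, which lacks the site for eIF4E, had 855 to 1051 CPM, median 912, in the 9 icaritin libraries, against 1277 to 1614 CPM, median 1447, in the 9 DMSO libraries. It had log2 fold changes of -0.71 in SNT-8, -0.67 in SNK-10 and -0.50 in SNT-16 (SE 0.04, 0.04 and 0.04, edgeR adjusted p = 5.40e-17, 2.89e-16 and 1.66e-12). The fall was smallest in SNT-16, and the interaction (edgeR adjusted p = 0.0259) was lost on leaving out any of 6 single libraries (0.0544 to 0.0738). EIF4G3, a scaffold close to EIF4G1, had 87.7 to 112 CPM, median 92.6, in the 9 icaritin libraries, against 113 to 150.3 CPM, median 118, in the 9 DMSO libraries. Its arms did not overlap, with log2 fold changes of -0.39 in SNT-8, -0.42 in SNK-10 and -0.33 in SNT-16 (SE 0.05, 0.05 and 0.05, edgeR adjusted p = 2.21e-08, 2.17e-09 and 1.04e-06). Of the other cap-binding genes, EIF4E2, which encodes 4EHP, a repressor that occupies the cap, had 53.4 to 62.05 CPM, median 57.5, in the 9 icaritin libraries, against 79.8 to 94.3 CPM, median 86.2, in the 9 DMSO libraries. The arms were apart, with log2 fold changes of -0.67 in SNT-8, -0.70 in SNK-10 and -0.47 in SNT-16 (SE 0.06, 0.06 and 0.06, edgeR adjusted p = 2.90e-12, 1.28e-12 and 2.05e-08). The listed length of EIF4E2 was shorter with icaritin in each line, and its fall was smaller per length. It averaged 43.1 FPKM with icaritin and 59.9 with DMSO in SNT-8, 41.3 and 60.9 in SNK-10, and 46.4 and 60.3 in SNT-16. EIF4E3, a distant relative of eIF4E, rose in SNK-10 and SNT-16. It had 47.3, 50.5 and 53.8 CPM in icaritin libraries of SNK-10, against 36.00, 36.7 and 33.3 CPM in its DMSO libraries. In SNT-16 it had 77.4, 84.4 and 77.4 CPM with icaritin, against 66.6, 71.4 and 66.7 CPM with DMSO, and in SNT-8, where the groups overlapped, 73.4, 69.3 and 70.2 CPM with icaritin, against 71.7, 67.2 and 67.3 CPM with DMSO. EIF4E3 had log2 fold changes of 0.05 in SNT-8, 0.52 in SNK-10 and 0.22 in SNT-16 (SE 0.06, 0.07 and 0.06, edgeR adjusted p = 0.553, 5.62e-08 and 0.00196), and the lines differed (interaction, edgeR adjusted p = 0.00111). EIF4ENIF1, which carries eIF4E into the nucleus and to mRNA decay bodies, changed by -0.37 in SNT-8, -0.19 in SNK-10 and -0.33 in SNT-16. Its call in SNK-10, where groups overlapped, was lost without icaritin replicate 1 or DMSO replicate 2 or 3 (edgeR adjusted p 0.0966 to 0.294).

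The helicase relatives and cofactors were split. EIF4A2, a near paralog of EIF4A1, rose where EIF4A1 fell, and EIF4A3, a helicase of the exon junction complex, fell. EIF4A2 had 172, 193 and 169 CPM in icaritin libraries of SNT-8, against 139, 135 and 141 CPM in its DMSO libraries. In SNK-10 it had 276, 289 and 315 CPM with icaritin, against 262, 269.5 and 272 CPM with DMSO, and in SNT-16 161, 166 and 162 CPM with icaritin, against 146, 139 and 157 CPM with DMSO. It had log2 fold changes of 0.37 in SNT-8, 0.13 in SNK-10 and 0.14 in SNT-16 (SE 0.05, 0.05 and 0.05, edgeR adjusted p = 3.42e-07, 0.0283 and 0.0280). The rise held in SNT-8 whichever library was left out, but was lost in SNK-10 without any of 3 libraries (edgeR adjusted p 0.0632 to 0.216) and in SNT-16 without any of 4 (0.0594 to 0.175), and the interaction (edgeR adjusted p = 0.0388) without any of 12 (0.0536 to 0.131). Per transcript length EIF4A1 remained the more abundant, at 388 ± 15.9 FPKM with icaritin in SNT-8, against 524 ± 14.3 with DMSO, while EIF4A2 averaged 95.5 ± 5.44 FPKM with icaritin and 71.8 ± 1.41 with DMSO (SD, n = 3 each). EIF4A3 had 89.4 to 102 CPM, median 93.8, in the 9 icaritin libraries, against 124 to 151 CPM, median 133, in the 9 DMSO libraries. Its arms were apart, with log2 fold changes of -0.57 in SNT-8, -0.53 in SNK-10 and -0.38 in SNT-16 (SE 0.05, 0.05 and 0.05, edgeR adjusted p = 7.09e-12, 9.10e-11 and 1.06e-07). EIF4B, which stimulates the helicase and is phosphorylated by S6 kinase, rose. It had 518 to 767 CPM, median 639, in the 9 icaritin libraries, against 419 to 550.0 CPM, median 509, in the 9 DMSO libraries. The lowest icaritin library lay below the highest DMSO library of another line, but groups were apart within each line, with log2 fold changes of 0.46 in SNT-8, 0.28 in SNK-10 and 0.30 in SNT-16 (SE 0.05, 0.05 and 0.05, edgeR adjusted p = 5.64e-10, 1.38e-05 and 4.37e-06). EIF4H, a smaller cofactor of the helicase, ranged from 363 to 443 CPM with icaritin, against 359.9 to 410.2 CPM with DMSO, and did not pass in any line.

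**Figure D4:**
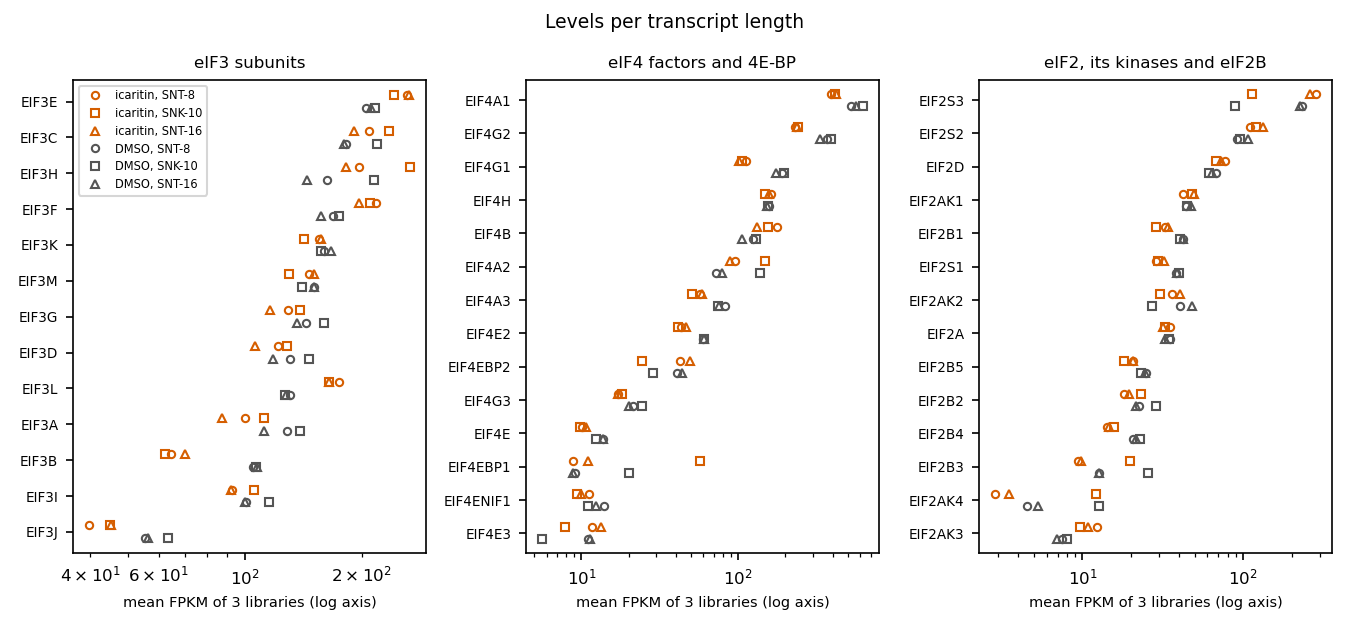
Points give the mean FPKM of 3 libraries (horizontal log axis) for each gene (rows, from the highest to the lowest mean DMSO level), icaritin above DMSO, with the marker shape for the line. EIF4A1 and EIF4G2 are the highest of eIF4 and lie lower with icaritin, while EIF4EBP1 in SNK-10 stands to the right of its other groups at 57.3 FPKM.

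The eIF4E-binding proteins, which compete with eIF4G for eIF4E when mTORC1 is inactive, gave the most line-dependent result of the set. EIF4EBP1 rose in SNK-10, and the test called it in neither SNT line. It had 51.5, 50.01 and 52.2 CPM in icaritin libraries of SNK-10, against 18.3, 18.1 and 16.5 CPM in its DMSO libraries. SNT-8 cells had 5.99, 8.63 and 7.47 CPM with icaritin, against 7.89, 8.81 and 7.01 CPM with DMSO, and SNT-16 cells 9.36, 10.5 and 7.502 CPM with icaritin, against 7.03, 7.83 and 7.43 CPM with DMSO. The groups overlapped in both SNT lines and were far apart in SNK-10, with log2 fold changes of -0.10 in SNT-8, 1.54 in SNK-10 and 0.29 in SNT-16 (SE 0.14, 0.09 and 0.14, edgeR adjusted p = 0.588, 9.58e-17 and 0.0887). Without icaritin replicate 3 it passed in SNT-16 as well (log2 fold change 0.41, edgeR adjusted p = 0.0236). In SNK-10 the level was 2.90 times that with DMSO. The response of SNK-10 exceeded the mean of the SNT lines by 1.44 on the log2 scale (SE 0.14, edgeR adjusted p = 6.77e-10), and the interaction had an edgeR adjusted p of 2.80e-09.

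EIF4EBP2, the more abundant of these genes with DMSO, moved the other way in SNK-10. It had 196, 186 and 201 CPM in icaritin libraries of SNK-10, against 219.7, 229 and 221 CPM in its DMSO libraries. SNT-8 cells had 331, 303 and 319 CPM with icaritin, against 330.2, 306 and 302 CPM with DMSO, and SNT-16 cells 352, 364 and 372 CPM with icaritin, against 310.2, 338 and 331 CPM with DMSO. The groups overlapped in SNT-8 only, with log2 fold changes of 0.02 in SNT-8, -0.20 in SNK-10 and 0.15 in SNT-16 (SE 0.05, 0.05 and 0.05, edgeR adjusted p = 0.732, 0.000736 and 0.00701). The rise in SNT-16 was lost without DMSO replicate 1 (edgeR adjusted p = 0.0749). Per transcript length, EIF4EBP1 averaged 57.3 ± 0.833 FPKM with icaritin in SNK-10, against 20.2 ± 1.09 with DMSO, and EIF4EBP2 24.4 ± 0.553 FPKM with icaritin, against 28.6 ± 0.745 with DMSO (SD, n = 3 each). EIF4EBP1 was thus above EIF4EBP2 per length with icaritin in SNK-10 and below it in the other groups. That order rests on the listed lengths, 877 bases for EIF4EBP1 and 7531 for EIF4EBP2. By CPM EIF4EBP2 was the higher in every group. EIF4EBP3 was listed at no more than 4.37 expected counts in any library, and a read-through gene with ANKHD1 that overlaps it had a mean of 1100, so no change is given.

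Among the eIF5 genes, EIF5A, the hypusine-bearing factor that helps ribosomes through difficult peptide bonds, and EIF5B, the GTPase that joins the ribosomal subunits, fell in each line. EIF5A was the most abundant of all 52 genes per transcript length with DMSO (796 FPKM). It had 609 to 719 CPM, median 672, in the 9 icaritin libraries, against 939 to 1105 CPM, median 1051, in the 9 DMSO libraries. The arms were apart, with log2 fold changes of -0.68 in SNT-8, -0.64 in SNK-10 and -0.62 in SNT-16 (SE 0.04, 0.04 and 0.04, edgeR adjusted p = 3.47e-16, 2.24e-15 and 8.00e-15). Its near-identical copy EIF5AL1 was at 2.0 CPM or less in every library. EIF5B had 136 to 214 CPM, median 187, in the 9 icaritin libraries, against 241 to 294 CPM, median 268, in the 9 DMSO libraries. The arms did not overlap, with log2 fold changes of -0.72 in SNT-8, -0.55 in SNK-10 and -0.43 in SNT-16 (SE 0.07, 0.07 and 0.07, edgeR adjusted p = 8.04e-10, 7.56e-08 and 4.51e-06). EIF5B overlaps REV1, at a mean expected count of 358 beside 2181.

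EIF5, which makes eIF2 hydrolyse its GTP at the start codon, fell in SNK-10. It had 248, 235 and 264 CPM in icaritin libraries of SNK-10, against 314, 319 and 308 CPM in its DMSO libraries. In SNT-8 it had 289, 309 and 274 CPM with icaritin, against 317, 287 and 289.5 CPM with DMSO, and in SNT-16 293, 300.3 and 307 CPM with icaritin, against 314, 293 and 293 CPM with DMSO. Groups overlapped in both SNT lines, with log2 fold changes of -0.03 in SNT-8, -0.33 in SNK-10 and 0.00 in SNT-16 (SE 0.05, 0.05 and 0.05, edgeR adjusted p = 0.599, 5.70e-07 and 0.999). The SNK-10 response was below the mean of the SNT lines by a log2 difference of -0.32 (SE 0.06, edgeR adjusted p = 0.000250). EIF5A2, the second eIF5A gene and far weaker than EIF5A, fell in SNK-10 and rose in SNT-8. It had 19.3, 18.1 and 17.3 CPM in icaritin libraries of SNK-10, against 24.1, 26.97 and 24.9 CPM in its DMSO libraries. SNT-8 cells had 4.29, 4.61 and 5.21 CPM with icaritin, against 4.25, 2.94 and 2.40 CPM with DMSO, and SNT-16 cells 5.75, 4.15 and 3.55 CPM with icaritin, against 4.995, 3.86 and 3.56 CPM with DMSO. Groups were apart in SNK-10, nearly met in SNT-8 and overlapped in SNT-16, with log2 fold changes of 0.56 in SNT-8, -0.48 in SNK-10 and 0.12 in SNT-16 (SE 0.20, 0.12 and 0.19, edgeR adjusted p = 0.0218, 0.000687 and 0.671). The rise in SNT-8 was lost without DMSO replicate 2 (edgeR adjusted p = 0.0762) or 3 (0.154) or icaritin replicate 3 (0.0850).

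EIF6, which binds the large ribosomal subunit and keeps it from joining the small one too early, fell in each line. It had 70.5 to 105 CPM, median 93.5, in the 9 icaritin libraries, against 100.2 to 132 CPM, median 114, in the 9 DMSO libraries. No icaritin library of a line reached its DMSO libraries, with log2 fold changes of -0.52 in SNT-8, -0.38 in SNK-10 and -0.36 in SNT-16 (SE 0.07, 0.06 and 0.06, edgeR adjusted p = 1.94e-08, 3.72e-06 and 1.52e-05).

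**Figure D5:**
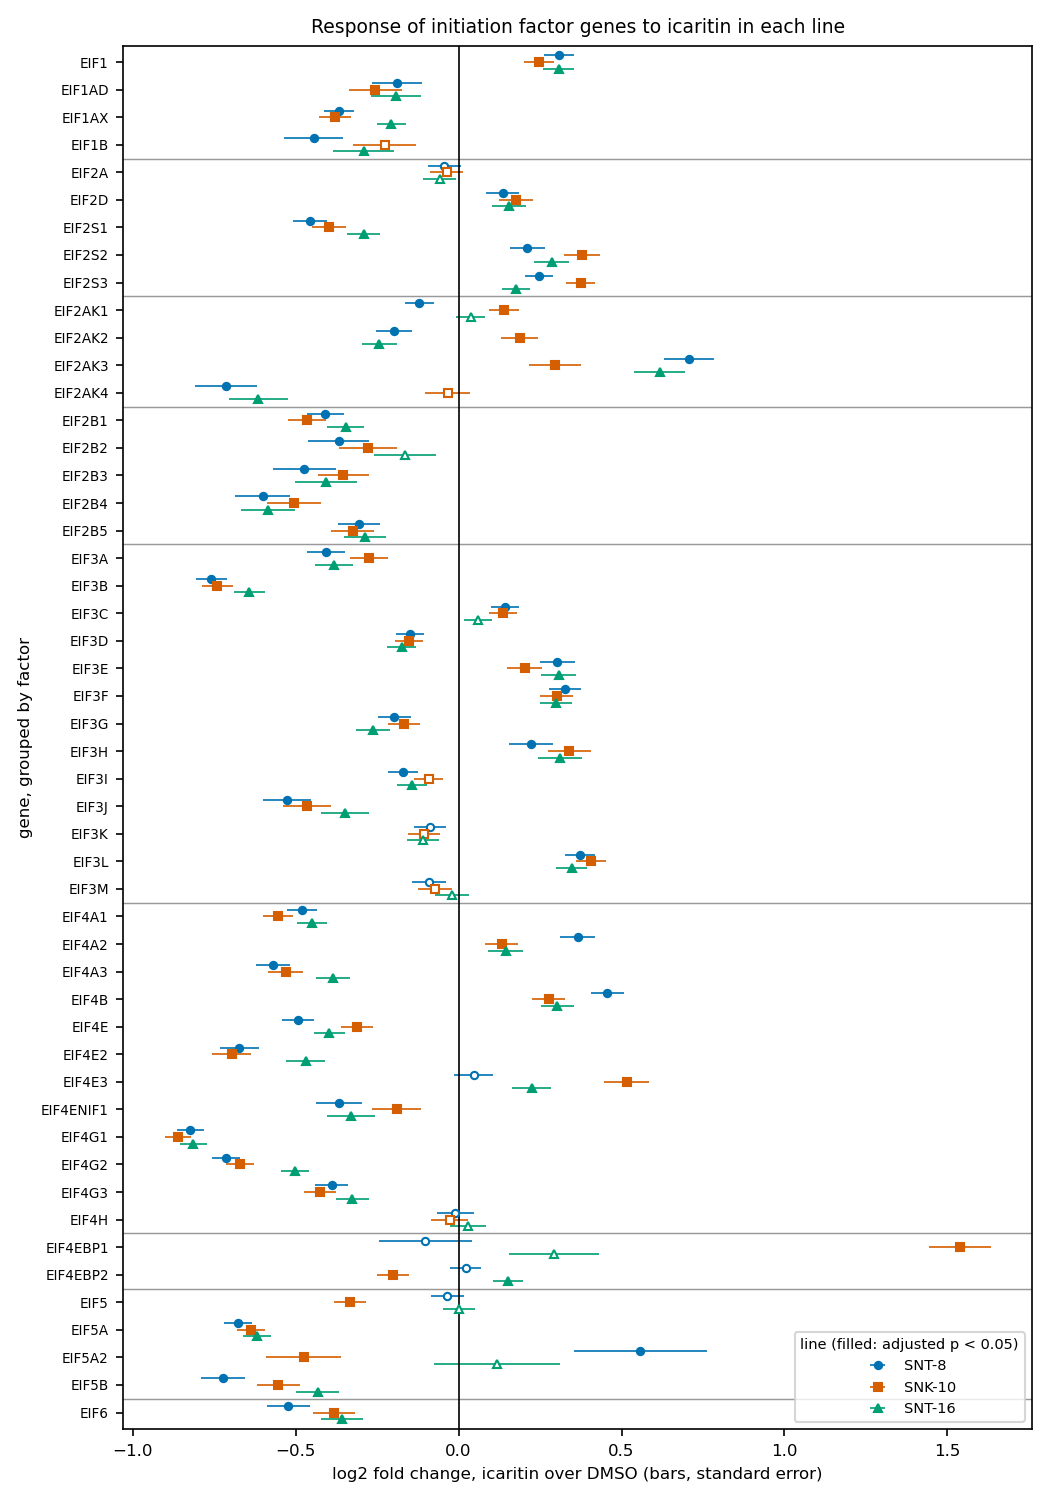
Each row is a gene, grouped by factor, with its log2 fold change of icaritin over DMSO on the horizontal axis and its standard error as a bar, in circles for SNT-8, squares for SNK-10 and triangles for SNT-16. Filled markers passed the edgeR test; all filled markers of eIF2B lie left of 0, those of eIF3 lie on both sides, and EIF4EBP1 in SNK-10 stands alone at 1.54.

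SNK-10 differed from the SNT lines in its response for 10 genes: 6 had a higher response (8.22% of all genes did) and 4 a lower one (5.90% of all genes). Scaling by library totals gave 4 higher and 10 lower in place of these. Among all genes of at least 20 CPM, 13.4% had a higher response and 7.71% a lower one. Of the 48 initiation factor genes at that level, 5 (10.4%) were higher and 3 (6.25%) lower, so neither share exceeded that background. Besides those described, EIF2S3 had a difference of 0.16 (SE 0.05, edgeR adjusted p = 0.0328). Its call was lost without any of 6 libraries (edgeR adjusted p 0.0510 to 0.177). It was also lost under 3 other alternatives (adjusted p 0.0604 to 0.181), library totals among them. Compared with the mean of the SNT lines, SNK-10 had 24 genes higher and 8 lower with DMSO, where 31.8% of all genes were higher and 29.6% lower. Higher in SNK-10 were EIF5A2 (log2 difference 2.80, SE 0.12, edgeR adjusted p = 1.57e-22), EIF2AK4 (1.40), EIF4EBP1 (1.20), EIF2B3 (1.04) and EIF4A2 (0.91). Lower in SNK-10 were EIF2S3 (log2 difference -1.32, SE 0.04, edgeR adjusted p = 7.19e-28), EIF4E3 (-0.95), EIF1AX (-0.92), EIF2AK2 (-0.65) and EIF4EBP2 (-0.52). These DMSO libraries also enter the response of each line, so the comparisons share samples.

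Per transcript length with DMSO, EIF5A was followed in each line by EIF4A1 (570.1 FPKM on the mean of the lines) and then by EIF4G2 and EIF1, in an order that changed with the line. EIF1 was above EIF4G2 in SNT-8 (385 and 367 FPKM) and SNT-16 (349 and 332 FPKM) and below it in SNK-10 (354 and 393 FPKM). EIF4E stood at 13.2 FPKM, below EIF4A1 and EIF4G1 (187) of the same complex. Among the kinases EIF2AK1 (44.3 to 47.1 FPKM over the lines) and EIF2AK2 (27.0 to 47.8 FPKM) were the higher pair. The lowest was EIF2AK4 in SNT-8 (4.55 ± 0.390 FPKM) and SNT-16 (5.28 ± 0.154 FPKM), but EIF2AK3 in SNK-10 (8.05 ± 0.115 FPKM; SD, n = 3 each).

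Partners of these factors were counted in 4 lists. Of all genes, 24.0% rose and 25.0% fell in SNT-8, 24.4% and 24.0% in SNK-10, and 21.2% and 20.8% in SNT-16. Most listed partners were above 20 CPM, so the lists are better read against all genes of at least 20 CPM. Of those, 28.7% rose and 36.7% fell in SNT-8, 32.6% and 32.2% in SNK-10, and 28.5% and 30.3% in SNT-16. Of 15 genes that act on eIF2 phosphorylation or, as ATF4, downstream of it, 5 rose and 4 fell in SNT-8, 7 and 5 in SNK-10, and 5 and 3 in SNT-16. PPP1R15A, also called GADD34, which directs a phosphatase to eIF2 alpha, rose (2.31 in SNT-8, 1.88 in SNK-10 and 2.25 in SNT-16 on the log2 scale), as did ATF4, the transcription factor of the pathway (0.55 in SNT-8, 1.03 in SNK-10 and 0.71 in SNT-16), while the catalytic subunits of that phosphatase differed. PPP1CC fell (-0.48 in SNT-8, -0.47 in SNK-10 and -0.38 in SNT-16), PPP1CA fell in SNT-8 and SNT-16 (-0.21 and -0.22), and PPP1CB rose in SNK-10 and SNT-16 (0.36 and 0.20). Of 15 partners of the cap complex and mTORC1, 7 rose and 4 fell in SNT-8, 5 and 4 in SNK-10, and 5 and 4 in SNT-16. PDCD4, which holds back eIF4A, rose (0.84 in SNT-8, 0.77 in SNK-10 and 0.84 in SNT-16), and RPS6KB1, an S6 kinase, fell (-0.45 in SNT-8, -0.33 in SNK-10 and -0.42 in SNT-16), as did the helicase gene DDX3X (-0.66 in SNT-8, -1.03 in SNK-10 and -0.57 in SNT-16).

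Of 9 further factors of initiation, recycling and hypusine formation 7, 6 and 6 fell in SNT-8, SNK-10 and SNT-16, and the other 2, 3 and 3 did not pass. ABCE1, which splits ribosomes for a new round, fell (-0.86 in SNT-8, -0.68 in SNK-10 and -0.66 in SNT-16), as did CDC123, an assembly factor of eIF2 (-0.69 in SNT-8, -0.66 in SNK-10 and -0.45 in SNT-16). Of 8 tested elongation and termination factors, 4 rose and 2 fell in SNT-8, 3 and 2 in SNK-10, and 5 and 2 in SNT-16. The elongation factor EEF2 rose (0.39 in SNT-8, 0.28 in SNK-10 and 0.27 in SNT-16), and the release factors GSPT1 (-0.70 in SNT-8, -0.64 in SNK-10 and -0.61 in SNT-16) and ETF1 (-0.63 in SNT-8, -0.67 in SNK-10 and -0.42 in SNT-16) fell in each line. Each of these counts is by the edgeR test over all genes.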

How the data were processed

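RNA was measured in 18 libraries of total RNA, grouped by the line and treatment in the labels. For each gene the authors deposited an expected count, an estimate of its fragments, and FPKM, the same scaled for length and library, per the file headers; the deposited length column was used as listed. Per the submitters' processing notes Bowtie2 and HISAT were used; the sources used here give no version, quantifier or genome build. A gene absent from a library was taken as 0. Names came from NCBI gene IDs (21559 of 21662 matched).

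Expected counts were rounded and tested with edgeR 4.0.16 (R 4.3.3): filterByExpr (minimum count 10, total 15), TMM, 1 robust quasi-likelihood fit of 6 group means with 12 residual degrees of freedom, common biological coefficient of variation 4.43%. Tests were two-sided, with Benjamini-Hochberg adjustment over 14396 genes and a threshold of 0.05. CPM carries the TMM factors, and the SE of a fold change was taken from its F statistic. The fit was also run on data simulated with 1 spread per gene for all groups, which could not show how unequal spread affects the calls. Depth of 9526431 to 10100453 expected counts limits weak genes. Leaving out each library, limma 3.58.1 on log2(FPKM + 1), DESeq2 1.42.0 and other scalings and filters were alternatives. Members and lists were chosen with earlier results of these data known. Given in full are the kinases, 4E-BP, eIF2B, EIF2S1 to EIF2S3, the main eIF4 and eIF5 genes, EIF6, the 5 largest shared rises and 5 largest shared falls among the rest, and all genes past the interaction test. Same-numbered libraries did not deviate together (correlations -0.129 to 0.042), so no pairs entered the fit.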

Additional observations from a re-analysis of the deposited data

Results flagged for a closer look

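The response to icaritin differed between the 3 lines for 11 genes by the interaction test of edgeR, with p adjusted over all genes tested. EIF4EBP1 had an edgeR adjusted p of 2.80e-09, with -0.10 in SNT-8, 1.54 in SNK-10 and 0.29 in SNT-16 as log2 fold changes. For the kinases the edgeR adjusted p was 2.49e-05 for EIF2AK4 (-0.71 in SNT-8, -0.03 in SNK-10 and -0.61 in SNT-16), 0.000138 for EIF2AK2 (-0.20 in SNT-8, 0.19 in SNK-10 and -0.24 in SNT-16), 0.0120 for EIF2AK1 (-0.12 in SNT-8, 0.14 in SNK-10 and 0.04 in SNT-16) and 0.0186 for EIF2AK3 (0.71 in SNT-8, 0.30 in SNK-10 and 0.62 in SNT-16). EIF4EBP2 had an edgeR adjusted p of 0.000790 (0.02 in SNT-8, -0.20 in SNK-10 and 0.15 in SNT-16), EIF5 of 0.000964 (-0.03 in SNT-8, -0.33 in SNK-10 and 0.00 in SNT-16) and EIF4E3 of 0.00111 (0.05 in SNT-8, 0.52 in SNK-10 and 0.22 in SNT-16). EIF5A2 had 0.00319 (0.56 in SNT-8, -0.48 in SNK-10 and 0.12 in SNT-16), EIF4G2 0.0259 (-0.71 in SNT-8, -0.67 in SNK-10 and -0.50 in SNT-16) and EIF4A2 0.0388 (0.37 in SNT-8, 0.13 in SNK-10 and 0.14 in SNT-16), each an edgeR adjusted p. The call for EIF2AK1 was lost without SNT-8 DMSO replicate 2 (edgeR adjusted p = 0.0558). It was also lost under 2 other alternatives (adjusted p 0.0796 and 0.0845), scaling by library totals among them. Those for EIF2AK3, EIF4G2 and EIF4A2 were lost without any of 3, 6 and 12 single libraries. Other alternatives also lost the calls for EIF4G2 (1 alternative, adjusted p 0.0577) and EIF4A2 (3 alternatives, 0.0577 to 0.0617).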

How the results depend on the processing

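No result for a gene of the set changed direction among called values under any alternative, and of 222 calls 192 held whichever library was left out and 207 under every other alternative. With 1 library left out, the genes of the set higher and lower numbered 11 to 13 and 28 to 29 in SNT-8, 13 to 16 and 25 to 29 in SNK-10, 10 to 13 and 24 to 28 in SNT-16, and 14 and 29 to 32 on the mean of the lines. The interaction called 9 to 15, the SNK-10 response 4 to 6 higher and 4 to 5 lower, and the DMSO comparison 23 to 25 higher and 6 to 8 lower. Over all genes these counts were 3052 to 3565 and 3313 to 3679 in SNT-8, 3148 to 3654 and 3121 to 3612 in SNK-10, 2640 to 3213 and 2656 to 3150 in SNT-16, 4425 to 4568 and 4208 to 4332 on the mean, 1591 to 2492 for the interaction, 931 to 1354 and 683 to 960 for the SNK-10 response, and 4291 to 4751 and 3862 to 4394 for the DMSO comparison. For the SNK-10 response, scaling by library totals, chosen after seeing the data, gave 10 genes of the set lower in place of 4, and 752 higher and 1479 lower of all genes in place of 1184 and 849. With limma on log2(FPKM + 1) 9 of the set and 1611 of all genes were lower; the cause was not tested. Leaving RNR1 and RNR2 out of the scaling, also chosen after seeing the data, lost no call. Replicate numbers did not pair the libraries; the replicate block, which gave 28 lower in SNT-8, 28 in SNK-10 and 26 in SNT-16 and 9 for the interaction, kept 217 of the 222 calls. Depth limits EIF4EBP3 and EIF5AL1.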

Other observations

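The length listed for EIF4E2 in the deposited tables varied between libraries and was shorter with icaritin in each line, an observation made after the values were seen and not tested. It was 1327, 1317 and 1292 bases with icaritin in SNT-8, against 1491, 1413 and 1457 with DMSO. SNK-10 had 1375, 1361 and 1321 bases with icaritin, against 1570, 1549 and 1430 with DMSO, and SNT-16 had 1324, 1337 and 1368 bases with icaritin, against 1393, 1422 and 1402 with DMSO. The groups did not overlap in any line. Listed lengths of other genes of the set, such as EIF4G3, EIF2AK2 and EIF2B3, also varied between libraries. How many genes had groups apart in listed length was not counted.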
